A study of Mus musculus with 14 samples.

Results

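Vim, Lum, Dcn, Bgn, Fbln1, Mgp, Sparc, Pdgfra, Pdgfrb and Thy1 are 10 genes, none a collagen, that mark stromal fibroblasts or encode proteins these cells put into the matrix. They were taken as named genes: every probe set whose only platform symbol was 1 of these names was used. This gave 22 probe sets of 45037 that were not controls, and 10 genes of 18193 with a probe set of their own. Of the 22, 21 passed a filter on dim probe sets, and the 1 left out was a dim probe set of Fbln1. Each gene is described first by the brightest of its probe sets.

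Whole uteri were dissected at day 3.5 of gestation, before implantation, and each sample was put on 1 Affymetrix array, 14 in all. The females were C57BL/6, either wild type or Folr4-/-, homozygous for a mutation of Folr4 (now Izumo1r). The animals called folinic acid here had 2 intraperitoneal injections of this reduced folate at 12.5 mg/kg, 10 and 3 days before mating, and the others had saline. Saline was given to 4 wild types and 3 Folr4-/- mutants, and folinic acid to 3 wild types and 4 mutants, all on the same chow. The mutation is of the whole animal, not of the stroma, so every cell of the mutant uteri carries it. The labels call the replicates biological, without saying whether any females were related, and the number of arrays limits the precision. In whole tissue, fewer cells of a type and less RNA per cell cannot be told apart.

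Stromal cells fill the endometrium between the epithelium and the smooth muscle of the myometrium, and in mouse pregnancy they turn into the decidua that surrounds the implanting embryo. They build a matrix of collagen fibres, on which small leucine-rich proteoglycans such as decorin, lumican and biglycan sit and set the thickness and spacing of the fibrils. Platelet-derived growth factors signal to these cells through the receptors Pdgfra and Pdgfrb, of which the first is best known from fibroblasts and the second also from pericytes and smooth muscle.

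Promoter sequence was found for 5 of the 10 genes (Vim, Bgn, Fbln1, Pdgfra and Sparc), with 6 start sites, in a RefSeq table on GRCm38.p6. Those of Vim and Bgn are shown because every supplemented array was below every saline array for Vim, while the supplemented and saline arrays overlapped for Bgn. The 250 bases before the start are printed for Vim (chr2:13574061-13574310, + strand) and Bgn (chrX:73483351-73483600, + strand), with motif matches on either strand in capitals. The motifs searched were the TATA box spelled TATAAA, the CCAAT box, the GC box spelled GGGCGG and the AP-1 site spelled TGANTCA.
Vim: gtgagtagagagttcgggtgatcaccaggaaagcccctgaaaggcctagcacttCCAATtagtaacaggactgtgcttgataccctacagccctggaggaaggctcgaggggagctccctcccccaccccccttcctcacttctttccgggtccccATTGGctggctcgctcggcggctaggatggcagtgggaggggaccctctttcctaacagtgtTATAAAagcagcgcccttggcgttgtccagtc
Bgn: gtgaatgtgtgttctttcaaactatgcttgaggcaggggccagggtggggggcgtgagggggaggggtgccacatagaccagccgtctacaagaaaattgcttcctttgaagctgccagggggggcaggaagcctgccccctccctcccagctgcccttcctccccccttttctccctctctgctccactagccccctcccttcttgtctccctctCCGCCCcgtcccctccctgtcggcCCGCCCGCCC
The Vim sequence held a TATA box at position -32 from the start and CCAAT boxes at -196 and -94. The Bgn sequence held 3 GC boxes, at -34, -10 and -6, each read from its first base, and no TATA box. Of 32851 promoters in the table, 12.4% held a TATA box in this window, 33.8% a CCAAT box, 32.7% a GC box and 6.75% an AP-1 site. GC content was 58.4% for Vim and 64.4% for Bgn. A match describes letters only.

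All 15 endometrial stroma markers (among them Hand2, Hoxa10 and Pgr), 14 of 14 epithelial markers with a probe set and 11 of 11 smooth muscle markers passed the filter. Median signals were 129 to 157 per array. RNA quality, read from the 3-prime over 5-prime signal of actin, gave ratios of 1.54 to 3.64. The ranges of the 4 groups overlapped, and replicate 3 of the saline wild types had the highest ratio. Median ratios were 2.02 with saline and 1.70 with folinic acid in wild types, and 3.00 and 1.97 in mutants. All 10 genes were bright: their mean signals lay between the 94.6th and 99.7th percentile of all probe sets. This bears on the folinic acid comparisons, because under the deposited scaling the brightest 1% of probe sets (451) had a median log2 difference of -0.19 in supplemented wild types and -0.40 in supplemented mutants, each against saline. Lum, Dcn, Mgp and Sparc were among those 451, and the other genes were not. Over the 2428 probe sets as bright as the dimmest of the 10, these medians were -0.04 and -0.12.

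No gene of the 10 passed the threshold, an adjusted p of 0.05 over 22519 probe sets, in any comparison of the limma fit. After folinic acid in wild type, where 0% of probe sets passed, 7 of the 10 genes were lower, with a median log2 difference of -0.27 against 0.01 for all probe sets kept. Of all probe sets kept 48.8% were lower, and of the 2428 as bright as the dimmest of the 10, 58.8%. An unadjusted p under 0.05 was reached by 5 of the 10 (Vim, Lum, Dcn, Mgp and Pdgfrb, all lower) against 2.71% of probe sets, and in 4 (Vim, Dcn, Mgp and Pdgfrb) every treated array was below every saline array, against 2.56%. After folinic acid in mutants, where 0% passed as well, 7 of the 10 were lower with a median of -0.05. Of all probe sets kept 48.2% were lower in mutants, and of the 2428 bright ones 66.3%, with a median of -0.12. There, 2 of 10 (Vim and Thy1) had an unadjusted p under 0.05 against 12.8%, and 1 of 10 (Vim) had every treated array below every saline array against 5.69%.

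**Figure D1:**
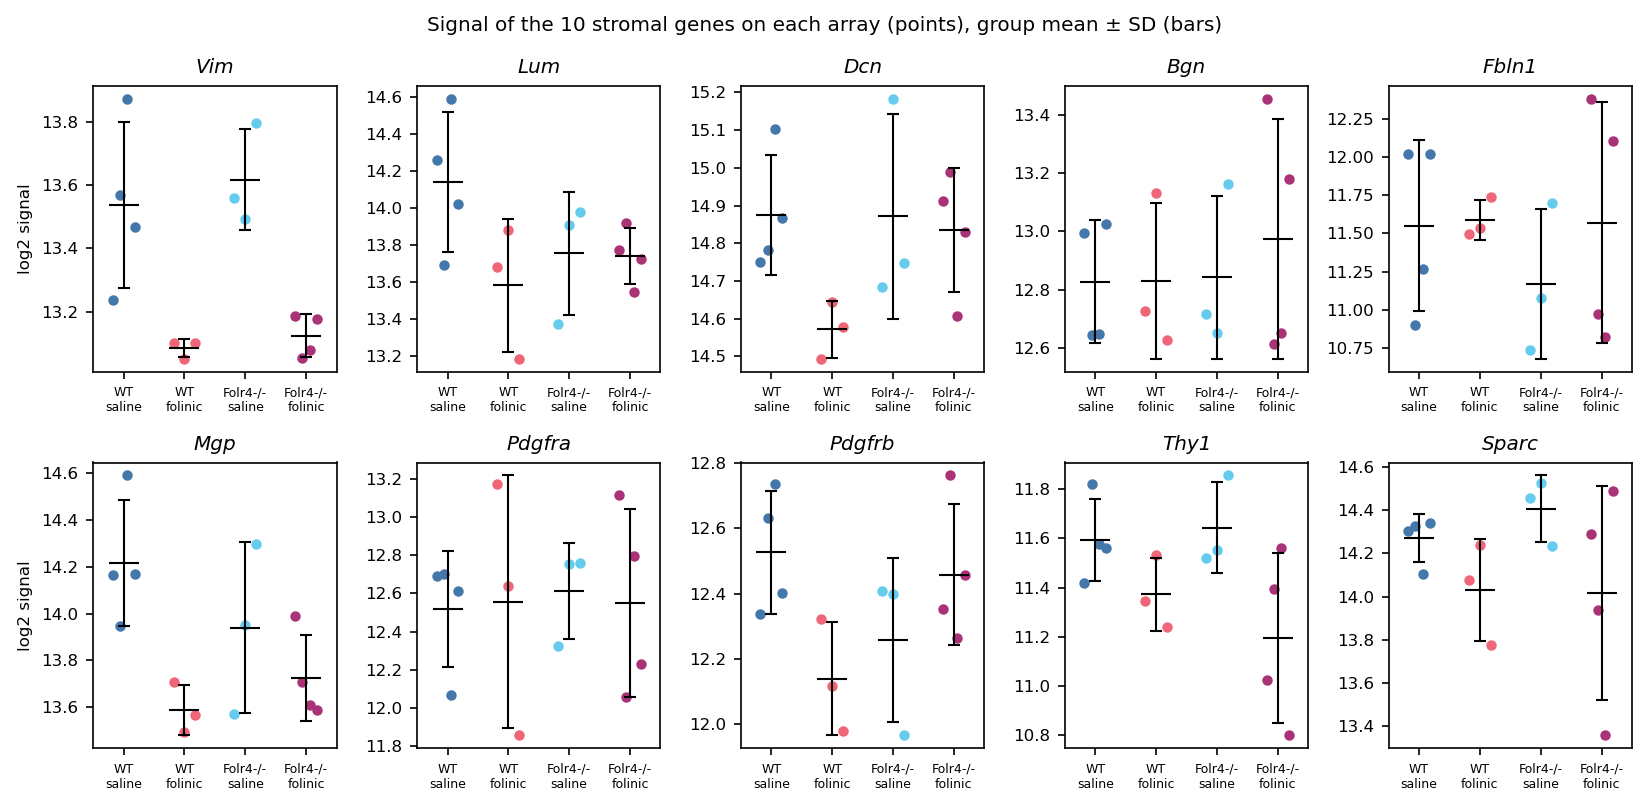
Log2 signal of the 10 genes, 1 panel each with its own vertical scale, in the 4 groups. Points are arrays, and bars give the group mean ± SD of log2 signal. For Vim all 7 folinic acid arrays lie below all 7 saline arrays, while for Bgn, Fbln1 and Pdgfra the groups overlap.

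Vim encodes vimentin, the intermediate filament protein of mesenchymal cells. Its signal in wild-type saline uteri was 9659, 12158, 15008 and 11342, and with folinic acid 8786, 8483 and 8777. Mutant saline uteri gave 12087, 11524 and 14243, and mutant folinic acid uteri 9323, 8492, 8654 and 9259.6. On this probe set the 7 supplemented uteri lay between 8483 and 9323, below the lowest saline uterus at 9659, and they were also closer together. Vim was 1.37-fold lower in wild type (12042 ± 2234 against 8682 ± 173, SD, n = 4 and 3; log2 difference -0.45 ± 0.14, SE, adjusted p near 1). The difference was 1.41-fold in mutants (12618 ± 1435 against 8932 ± 421, n = 3 and 4; -0.49 ± 0.14, adjusted p = 0.179). The interaction, which asks whether the responses differ between genotypes, was -0.04 with a 95% interval of -0.46 to 0.38.

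Averaged over the genotypes, a comparison added after these values had been seen, Vim was lower by a log2 difference of -0.47 ± 0.10 (SE; unadjusted p = 0.00022, adjusted p = 0.108, 7 of 7 supplemented arrays below all 7 saline arrays). In this averaged comparison 0.00444% of probe sets passed the threshold, 9.21% had an unadjusted p under 0.05, and 0.226% (51 probe sets) had all supplemented arrays below all saline arrays. Of the 10 genes, 8 were lower, with a median of -0.23, and 3 (Vim, Mgp and Thy1) had an unadjusted p under 0.05. Of the 2428 probe sets as bright as the dimmest of the 10, 65.8% were lower, with a median of -0.07. In the brightest 1%, which held 4 of the 10 genes, 92% were lower, with a median of -0.29. Under quantile normalization, which brings the brightest 1% to medians of 0.00 in wild type and -0.03 in mutants, Vim remained lower, at -0.39 and -0.35. What made the bright probe sets lower was not tested.

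The other probe sets of Vim separated the groups less. The dimmest of the 3 gave 5582, 6515, 7129.6 and 6232 in wild-type saline and 4916, 4334 and 4294 in wild-type folinic acid uteri, which did not overlap (log2 difference -0.49 ± 0.19, SE). In mutants it gave 5598, 4736 and 9037 with saline and 5349, 3884, 4911 and 5118 with folinic acid, which overlapped (-0.38 ± 0.19). On the middle set the supplemented wild types were spread more than the saline ones, at 7420 to 10948 against 9818 to 11376. Its groups overlapped in both genotypes, with -0.24 ± 0.20 in wild type and -0.41 ± 0.20 in mutants. All 3 sets were thus lower after folinic acid in both genotypes, none past the threshold. Array by array within groups, the brightest set followed the dimmest with r = 0.71 but the middle set with only r = 0.33. The middle and dimmest sets had r = 0.62. The brightest set is of Affymetrix's x type, whose probes can also match other sequences.

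**Figure D2:**
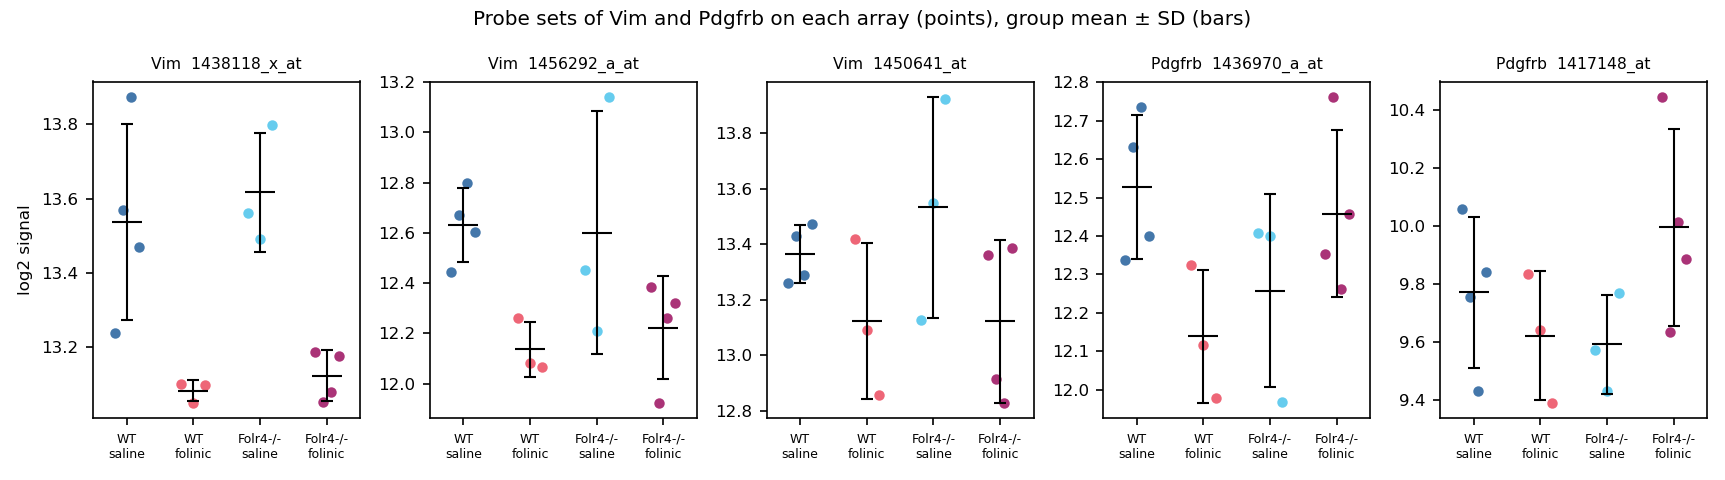
Log2 signal of the 3 probe sets of Vim and the 2 of Pdgfrb, 1 panel each with its own vertical scale. Points are arrays, and bars give the group mean ± SD. Only the leftmost set of Vim keeps all supplemented arrays below all saline arrays, and both sets of Pdgfrb have their highest array in mutants with folinic acid.

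Among the small leucine-rich proteoglycans, supplemented wild types had lower Lum and Dcn, by unadjusted p only, and Bgn was near zero. Lum and Dcn are neighbours on the chromosome, beside the related genes Kera and Epyc. Lum encodes lumican. Its signal was 19604, 13218, 24634 and 16611 in wild-type saline and 13149, 15070.5 and 9313 in wild-type folinic acid uteri. Mutants gave 10602, 15394 and 16159 with saline and 14001, 15458, 11964 and 13557 with folinic acid. The wild-type groups overlapped through saline replicate 2, and the mutant groups overlapped throughout. The log2 difference was -0.56 ± 0.22 (SE) in wild type and -0.01 ± 0.22 in mutants. The interaction was 0.54 (95% interval -0.11 to 1.19, adjusted p = 0.905). Without wild-type folinic acid replicate 3, the lowest array, the wild-type difference was -0.36.

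Dcn encodes decorin, which binds collagen fibrils and several growth factors. Its signal was 27582, 28146, 35187 and 29873 in wild-type saline and 23060.4, 25609.8 and 24460.3 in wild-type folinic acid uteri. All 3 supplemented wild types were below all saline wild types, by a log2 difference of -0.30 ± 0.14 (SE; adjusted p near 1). Mutants gave 26322, 37193 and 27509 with saline and 30809, 32489.5, 24964 and 29132 with folinic acid, which overlapped (-0.04 ± 0.14). These differences depended on the scaling: under quantile normalization they were -0.06 in wild type and 0.44 in mutants, so that the mutant direction turned. A dim second probe set of Dcn, with group means of 243 to 309, differed by -0.04 in wild type and 0.27 in mutants. Within groups it went the opposite way to the first, with r = -0.69.

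Bgn encodes biglycan, the closest relative of decorin. Its signal was 8152, 6392, 6419 and 8345 in wild-type saline, and 6781, 8980.2 and 6327 in wild-type folinic acid uteri. Mutants gave 6720.4, 6425 and 9176 with saline and 11235, 6259, 6424 and 9293 with folinic acid. All 4 groups overlapped, with the highest value in mutant folinic acid replicate 1. The log2 difference after folinic acid was 0.00 in wild type (95% interval -0.45 to 0.46) and 0.13 in mutants (-0.32 to 0.59). The 3 probe sets of Bgn moved together array by array, with r from 0.98 to 0.99 over 14 arrays after group means were removed.

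Of the other secreted proteins, Mgp was the furthest from zero in wild type. It encodes matrix Gla protein, an inhibitor of calcification. Mgp gave 18376, 15793, 24636 and 18397 in wild-type saline and 13372, 11535 and 12139.6 in wild-type folinic acid uteri. Every supplemented wild type was below every saline wild type, 1.55-fold on average (19300.3 ± 3761 against 12349 ± 936, SD; log2 difference -0.63 ± 0.18, SE, adjusted p near 1). It ranked 24th by p among the 22519 probe sets of that comparison. Mutants gave 12165, 15853 and 20132 with saline and 16244, 13386, 12522 and 12335 with folinic acid, which overlapped. Their difference was -0.22 ± 0.18, but -0.04 without mutant saline replicate 3 and -0.40 without mutant saline replicate 1. The interaction for Mgp was 0.41 (95% interval -0.12 to 0.95), and it was 0.59 and 0.23 without those arrays.

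Sparc encodes a collagen-binding glycoprotein of remodelling matrix. It gave 20252, 20562, 17642 and 20776 in wild-type saline and 17289, 19334 and 14005 in wild-type folinic acid uteri. Mutants gave 22509, 23635 and 19247 with saline and 20017, 15700.3, 10487 and 22988 with folinic acid. The supplemented uteri were spread most among mutants, and the groups overlapped in both genotypes. The log2 difference was -0.24 ± 0.21 (SE) in wild type, -0.11 without wild-type folinic acid replicate 3. In mutants it was -0.39 ± 0.21, and -0.17 without mutant folinic acid replicate 3. Under quantile normalization the differences were -0.08 and -0.11. A second bright probe set of Sparc differed by -0.20 ± 0.21 in wild type and -0.11 ± 0.21 in mutants. Within groups it followed the first with r = 0.41.

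Fbln1 encodes fibulin-1, a glycoprotein of elastic fibres and basement membranes, and was the most variable of the 10. Its signal was 4155, 1912, 2459 and 4140.0 in wild-type saline and 2882, 2966 and 3409 in wild-type folinic acid uteri. Mutants gave 1705, 2157 and 3329 with saline and 5321, 2012, 1811 and 4402 with folinic acid. Wild-type saline and mutant folinic acid uteri each split into 2 high and 2 low arrays. In wild-type saline the 2 high arrays had actin ratios of 1.72 and 1.84, the 2 low ones 2.21 and 3.64. In supplemented mutants these were 1.54 and 1.74 against 2.19 and 3.12. Saline mutants went the same way (highest signal at 2.11), supplemented wild types the other way (highest signal at 2.42). The part of RNA quality in this split was not tested. The log2 difference was 0.04 in wild type (95% interval -0.75 to 0.83) and 0.40 in mutants (-0.39 to 1.19). The mutant difference was 0.13 without mutant folinic acid replicate 1, 0.66 without mutant saline replicate 3, and 0.04 with the actin ratio as a covariate. The residual SD of Fbln1 around the group means was 0.57 on the log2 scale, at the 92.4th percentile of all probe sets kept, against 0.17 for Vim at the 9.67th. A second probe set of Fbln1 followed the first with r = 0.95 over 14 arrays.

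The 2 PDGF receptors did not move together. Pdgfrb gave 5179, 6349.6, 6822 and 5409 in wild-type saline and 5125, 4435 and 4034 in wild-type folinic acid uteri. These did not overlap, although the highest supplemented array was close to the lowest saline array (log2 difference -0.39 ± 0.16, SE, adjusted p near 1). Mutants gave 5431, 5400.3 and 4003 with saline and 5232, 6949, 4912 and 5619 with folinic acid, which overlapped (0.20 ± 0.16, and 0.06 without mutant saline replicate 3). Under the deposited scaling, Pdgfrb was the only one of the 10 with an unadjusted p under 0.05 for the interaction, where 0% of probe sets passed the threshold and 4.9% had such a p. The interaction was 0.59 ± 0.23 (SE; unadjusted p = 0.021, adjusted p = 0.905), and over all 10 genes the median interaction was 0.20. A second probe set differed by only -0.15 ± 0.20 in wild type, where its groups overlapped, and by 0.40 ± 0.20 in mutants. It gave an interaction of 0.55 ± 0.28. Array by array, however, the 2 sets went opposite ways within groups (r = -0.54), so they do not give 1 ranking of the uteri.

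Pdgfra gave 6615, 6660.4, 4284 and 6271 in wild-type saline and 9234, 6383 and 3705 in wild-type folinic acid uteri. In mutants it gave 5128, 6915 and 6940.2 with saline and 8871, 4258, 7119.5 and 4800.3 with folinic acid. All groups overlapped, and both the highest and the lowest array belonged to wild type with folinic acid. The log2 difference was 0.04 in wild type (95% interval -0.59 to 0.67) and -0.06 in mutants (-0.69 to 0.56), intervals wide enough to hold a difference of the size seen for Vim. Of the 2 dimmer probe sets of Pdgfra, 1 differed by 0.58 ± 0.34 (SE) in mutants. The other differed by -0.04 ± 0.39 and followed the brightest with r = 0.94 over 14 arrays.

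Thy1 encodes a surface glycoprotein of fibroblasts that T cells and neurons also carry. It gave 2740.2, 3619, 3059 and 3022 in wild-type saline, and 2604, 2963 and 2417 in wild-type folinic acid uteri. Mutants gave 2941, 3005 and 3707 with saline, and 2081, 2695, 3023 and 1782 with folinic acid. In mutants, 3 of the 4 supplemented uteri were below all saline uteri. The log2 difference was -0.45 ± 0.18 (SE, adjusted p = 0.316) in mutants and -0.22 ± 0.18 in wild type. Of 7 T cell markers with a probe set, 2 passed the filter. The summed signal of all 7 was 625 to 4732 in supplemented mutants and 524 to 1009 in saline mutants. The highest sum was that of mutant folinic acid replicate 1, and the other supplemented mutants reached at most 1717. The T cell markers Cd3e, Cd2, Cd247, Cd8a and Cd4 were below the filter. The part of T cells in the Thy1 signal was not tested.

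**Figure D3:**
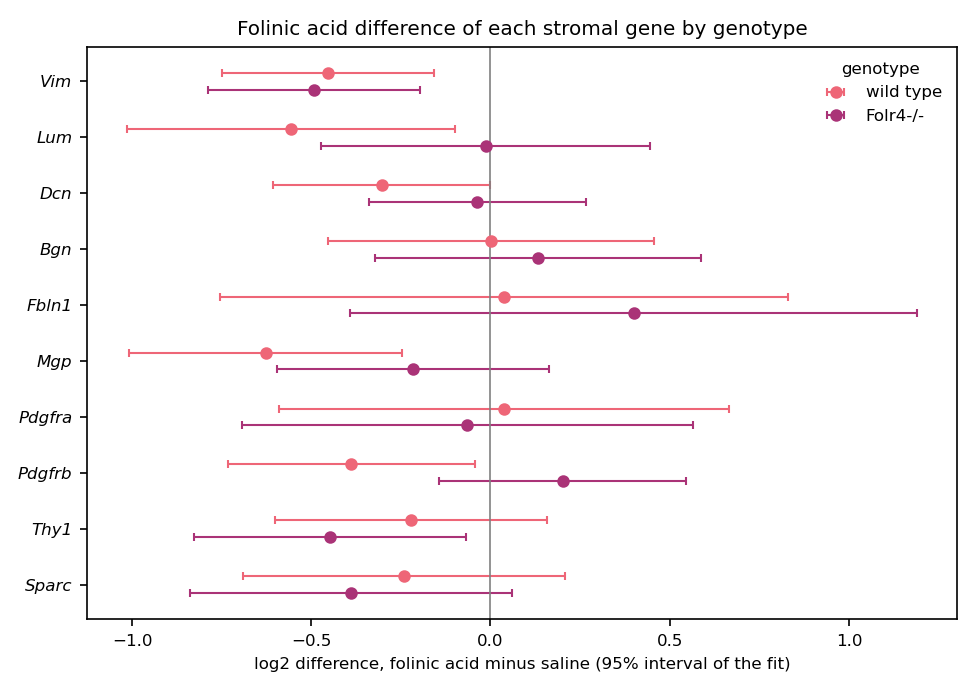
Log2 difference between folinic acid and saline uteri for each of the 10 genes, with the 95% interval of the limma fit, in wild type and in Folr4-/- mutants. Vim lies at -0.45 and -0.49, and Pdgfrb lies at -0.39 in wild type and 0.20 in mutants.

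Between the genotypes no gene of the 10 came near the threshold. Under saline, 5 of the 10 genes were higher and 5 lower in mutants, with a median log2 difference of 0.01. None had an unadjusted p under 0.05, against 3.11% of probe sets, and 0.00444% of probe sets passed the threshold. None of the 10 had groups that did not overlap, against 4.42%. The difference furthest from zero was that of Lum, -0.39 (95% interval -0.84 to 0.07), followed by Fbln1 at -0.38 (-1.17 to 0.41). Without mutant saline replicate 1 they were -0.19 and -0.16. Under folinic acid, 6 of the 10 were higher in mutants, with a median of 0.09. Again none had an unadjusted p under 0.05, against 3.81%, none had separate groups, against 4.94%, and 0.00444% of probe sets passed. Pdgfrb was at 0.32 (-0.02 to 0.66) and Dcn at 0.26 (-0.04 to 0.57). These comparisons share their groups with the folinic acid comparisons.

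Part of these differences went with the scaling of the arrays. Under quantile normalization the median of the 10 genes went from -0.27 to -0.16 in wild type, where 7 remained lower, and from -0.05 to 0.10 in mutants, where 4 were lower. Of the 2428 probe sets as bright as the dimmest of the 10, 48.6% were then lower in wild type and 54.8% in mutants. Mgp was at -0.49 in wild type and 0.00 in mutants, Lum at -0.40 and 0.19, and Pdgfrb at -0.34 and 0.27. Thy1 hardly moved, at -0.24 and -0.44. The highest signal on an array was 42725 to 67057 in supplemented uteri and 57054 to 90860.0 in saline uteri, ranges that overlapped. The unadjusted p depended on the scaling as well. In wild type 3 of the 10 (Vim, Mgp and Pdgfrb) had one under 0.05 with quantile normalization, against 5 without it, since Lum (unadjusted p = 0.095) and Dcn (unadjusted p = 0.635) no longer did, and 2.69% of probe sets had one. In mutants 3 of the 10 had one, Vim and Thy1 lower and Dcn higher (unadjusted p = 0.0046, adjusted p = 0.328), against 11.2% of probe sets. In the average of the genotypes Vim and Thy1 had one, against 8.02%. For the interaction Dcn (0.50, unadjusted p = 0.0165, adjusted p = 0.944) joined Pdgfrb, against 4.86%, and for the genotypes under folinic acid Dcn had one (0.33, unadjusted p = 0.0232, adjusted p = 0.998), against 4.04%. Neither scaling gave a limma adjusted p under 0.05 for any of the 10.

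**Figure D4:**
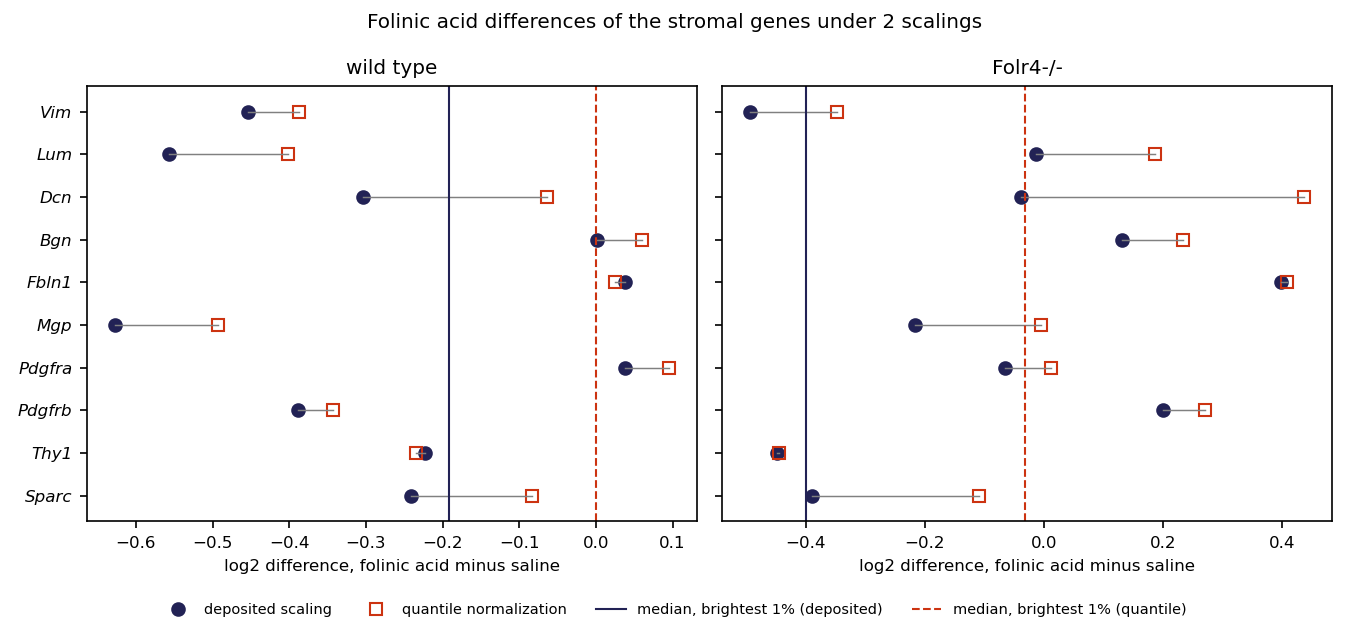
Log2 difference between folinic acid and saline uteri for each of the 10 genes under the deposited scaling (filled circles) and under quantile normalization (open squares), in wild type and in Folr4-/- mutants. Vertical lines give the median of the brightest 1% of probe sets under each scaling, at -0.19 and 0.00 in wild type and at -0.40 and -0.03 in mutants. Of the 10 genes, only Lum, Dcn, Mgp and Sparc are in that 1%.

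Within groups, the 10 genes did not vary as 1 block. Over 14 arrays, with group means removed, 31 of 45 pairs had a positive correlation, with a median r of 0.13 and a range from -0.66 to 0.85. The pair Bgn and Fbln1 was the 1 pair with an adjusted p under 0.05 for both measures (r = 0.85, permutation p = 0.00024, adjusted over 45 pairs 0.0108; rho = 0.80, permutation p = 0.00083, adjusted 0.0374). Without the 2 arrays furthest from the median of Bgn, r was 0.77. Both genes were high on the same 2 arrays of wild-type saline and of mutant folinic acid uteri, those with the lower actin ratios. Lum and Mgp followed at r = 0.69 (rho = 0.64, permutation p = 0.0062 and 0.0175, adjusted 0.14 and 0.262). Thy1 and Sparc were lowest at r = -0.66 (rho = -0.46, permutation p = 0.0106 and 0.101, adjusted 0.159 and 0.568), and r was -0.16 without the 2 furthest arrays. Against the mean of the other 9 genes, Lum reached r = 0.66 and Mgp 0.63, and Thy1 was at -0.33. These correlations share the arrays, their scaling and their RNA quality. The permutations moved values over all 14 arrays although group means had been removed, which makes the permutation p too small.

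**Figure D5:**
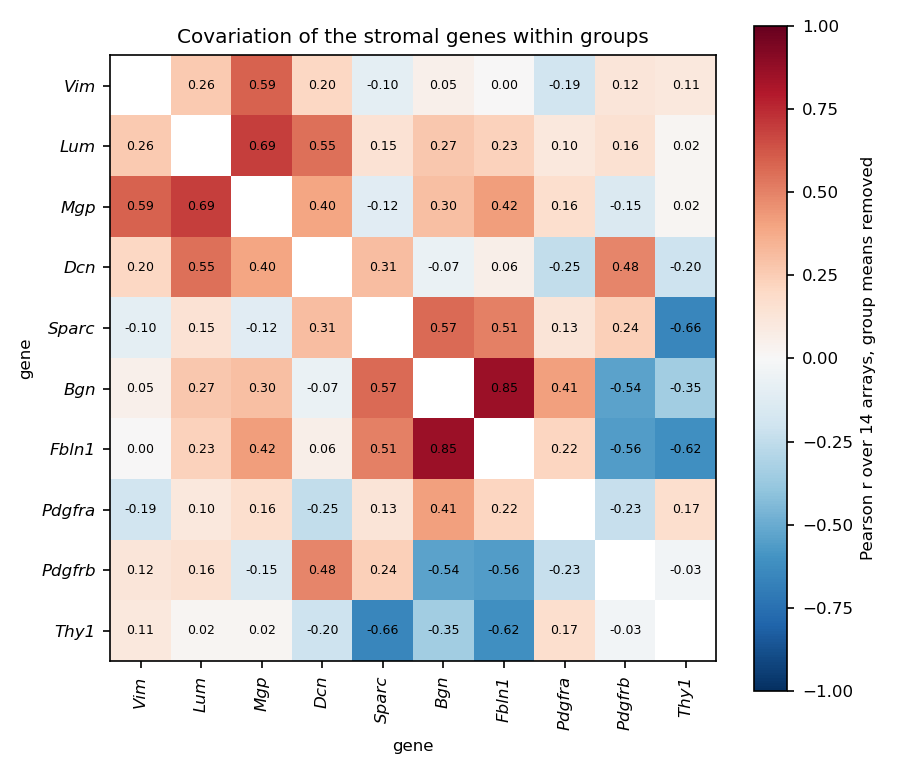
Pearson correlation between the log2 signals of each pair of the 10 genes over 14 arrays, after the mean of each group was removed. Bgn and Fbln1 have the highest value, 0.85, and Thy1 and Sparc the lowest, -0.66.

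Across all other genes measured, those whose residual signal was most like the mean of the 10 over 14 arrays were Pla2g7 (r = 0.93, rho = 0.95) and Igfbp3 (r = 0.91, rho = 0.93). Fam189b, Mical2, Sgce, Sqstm1, Dab2 and Otud1 followed, with r from 0.85 to 0.88. These 8 were picked as the highest of 11269 genes and are a description.

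Related genes were read from lists that name matrix and stromal functions, and none of their members passed the threshold of the limma fit in any comparison. An unadjusted p under 0.05 in supplemented wild types was reached by 2 of 15 collagens and by no other matrix, collagen processing, PDGF, intermediate filament or stroma gene measured, against 2.71% of all probe sets. In supplemented mutants it was reached by 2 collagens, 4 of 32 other matrix genes, 4 of 15 collagen processing genes, 1 of 12 PDGF genes, 2 of 7 intermediate filament genes and 7 of 15 stroma markers, against 12.8% of all probe sets. That share is close to those of the collagens (13.3%) and the other matrix genes (12.5%). Of 15 collagens measured, 11 were lower in supplemented wild types (median log2 difference -0.07) and 9 in mutants (-0.14). Col3a1, a fibrillar collagen that decorin binds, was 44338 ± 1642 with saline and 35129 ± 4623 with folinic acid in wild type, and 54276 ± 5936 and 35028 ± 2184 in mutants (SD). Its log2 differences were -0.34 ± 0.12 (SE) and -0.63 ± 0.12 (adjusted p = 0.120), with no overlap in either genotype. Col1a2 was at -0.26 ± 0.11 in wild type. In every group both genes had a mean signal above 10528, the cutoff of the brightest 1% of probe sets. The medians of that 1% were -0.19 in wild type and -0.40 in mutants under this scaling. Values of these 2 collagens under quantile normalization are not given here. Of 32 other matrix proteins, 21 were lower in wild type (median -0.10) and 16 in mutants (0.03). Aspn, which encodes a leucine-rich matrix protein related to decorin, was 327 ± 67.0 in saline and 766 ± 316 in supplemented mutants, at 1.17 ± 0.43 (SE, adjusted p = 0.285). Of 15 collagen processing genes, 8 were lower in wild type and 9 in mutants. Serpinh1, the collagen chaperone of the endoplasmic reticulum, was at -0.73 ± 0.22 in mutants (adjusted p = 0.209).

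Of 12 PDGF ligands and signalling partners, 9 were lower in supplemented wild types (median -0.16) and 4 in mutants (0.10). Pdgfd, a ligand of Pdgfrb, was 792 ± 308 and 828.5 ± 319 in wild type with saline and folinic acid, and 507 ± 299 and 132 ± 61.7 in mutants (SD). Its difference in mutants was -1.81 ± 0.47 (SE, adjusted p = 0.157), and between the supplemented genotypes -2.67 ± 0.47 (adjusted p = 0.524). Pdgfd lies near Folr4, and the part of the region around the mutation in its signal was not tested. The mutant groups overlapped, at 194 to 790 with saline and 91.4 to 224 with folinic acid. The mean of 132 was below the filter signal of 134. Of 7 intermediate filament genes and their partners, 5 were lower in wild type (median -0.11) and 4 in mutants (-0.27), among them Lmna, a nuclear lamin, at -0.57 ± 0.18 in mutants (adjusted p = 0.241).

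Markers of other cells were read beside these values. Of 15 endometrial stroma markers, 11 were lower in supplemented wild types (median -0.06) and 12 in mutants (-0.31), Esr1, an oestrogen receptor, at -0.31 ± 0.12 in mutants (adjusted p = 0.288). The group means of Esr1 lay above 10528, the cutoff of the brightest 1% of probe sets. The median of that 1% was -0.40 in mutants under this scaling. All 6 pericyte markers were lower in wild type (median -0.18), and their summed signal was 17546 to 23575 with folinic acid and 20678 to 28772 with saline. In mutants 4 of the 6 were lower (-0.17), with sums of 17935 to 24624 with folinic acid and 22968 to 26943 with saline. All 6 mesothelium markers were lower in wild type too (-0.38), with sums of 9676 to 13331 and 11874 to 16719. In mutants 5 of these 6 were lower (-0.49), with sums of 6551 to 13115 and 11733 to 13287. Of 11 smooth muscle markers, 8 were lower in wild type (-0.07) and 5 in mutants, where the median was 0.07. Their sums were 115716 to 168744 in supplemented and 131865 to 167509 in saline wild types. Of 14 epithelial markers, 9 were higher in wild type (0.09) and 7 in mutants (0.04), and of 10 endothelial markers 6 were lower in each. Of 11 macrophage and leukocyte markers, 10 were lower in wild type (-0.09) and 10 higher in mutants (0.72). Sums over all 12 with a probe set, filter or not, were 17803 to 91670 in supplemented and 17091 to 30319 in saline mutants. The highest sum was that of mutant folinic acid replicate 1, and the other 3 supplemented mutants reached at most 35138. Of 5 adipocyte markers with a probe set, 3 passed the filter, and all 5 summed to 279 to 27237 over the 14 arrays. The 1 blood marker measured was at -0.14 and -0.81. The part of these cells in the values of the 10 genes was not tested.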

How the data were processed

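RNA of 14 whole uteri was labelled in the one-cycle biotin assay and hybridised to 1-colour Affymetrix arrays, per the labels' protocols. The authors deposited 1 linear intensity per probe set and array, computed with MAS5 per the submitters' processing notes. The trimmed mean (2% off each end) was 500.002 to 500.003 on every array, so the authors had scaled each to a common level. No genome build is given in the sources used here.

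Of 45101 probe sets, 64 controls were left out. Gene names came from the platform annotation (34945 probe sets with 1 symbol, 932 with several, 9160 with none). Signals below 1 were raised to 1 (0.505% of values) and put on the log2 scale, and probe sets at or above the median mean log2 signal (a signal of 134) were kept, 22519 in all. Differences were tested, two-sided, with limma 3.58.1 in R 4.3.3, with 4 group means, 10 residual degrees of freedom and a variance trend, and p was adjusted by Benjamini-Hochberg over the 22519 probe sets in each comparison. Errors marked SE are those of the fit, intervals cover 95%, and correlations used 1e+05 permutations.

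The 10 genes, 15 related lists (186 genes) and settings were chosen with earlier results of these data known. From each of 6 related lists (collagens, other matrix proteins, collagen processing, PDGF, intermediate filament partners and endometrial stroma) the rule was to take genes past the threshold, or else up to 2 per comparison with the smallest p, and those named in the text are some of these. The 8 genes most like the 10 were chosen by Pearson correlation. The procedure was tested on simulated data. Replicate numbers were not taken to pair the samples: over 19 same-numbered pairs, correlations of deviations ran from -0.34 to 0.35, with 6 over 0.1. These were not set against pairs with different numbers, so they cannot exclude a pairing. A number in the titles is shared by wild-type saline replicates 2 and 3, and another by wild-type folinic acid replicates 1 and 2, and its meaning is not stated. Other settings were an offset of 16, quantile normalization, no filter, the upper 35% of probe sets, 1 probe set per gene, the mean of a gene's probe sets, other variance moderation, array weights, the compared groups only, replicate and title-number blocks, an actin ratio covariate and leaving out each array.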

Additional observations from a re-analysis of the deposited data

Results flagged for a closer look

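In groups of 4 arrays, the highest or lowest array was set apart when its gap to the nearest other, divided by the range of the group, was above Dixon's 95% critical value, 0.829. Of 42 groups read over the 21 probe sets kept, 2 met this, a share near the 1 in 20 that chance alone gives. Both concerned wild-type saline replicate 3. Its signal for Pdgfra was 4283.7, below the other 3 arrays, which lay between 6271 and 6660.4 (Dixon value 0.864). Its signal for Sparc was 17642, below the other 3 at 20252 to 20776 (Dixon value 0.844). No other probe set of Pdgfra or Sparc met the rule, among them the second bright set of Sparc. Wild-type saline replicate 3 had the highest actin and Gapdh 3-prime to 5-prime ratios, 3.64 and 2.48. It also had the highest signals of the 14 arrays for Lum, Mgp and the brightest probe set of Vim. On the middle and dimmest sets of Vim it gave 10015.5 and 7129.65, and mutant saline replicate 3 was highest at 15531 and 9037. With the actin ratio as a covariate of the fit, the folinic acid difference of Sparc went from -0.24 to -0.36 in wild type and from -0.39 to -0.57 in mutants, and that of Pdgfra from 0.04 to -0.09 and from -0.06 to -0.26. In mutants the covariate also moved Fbln1 from 0.40 to 0.04 and Bgn from 0.13 to -0.09. For Vim the differences were -0.42 and -0.45 with it. None passed the threshold.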

How the results depend on the processing

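The 10 genes kept the direction of their differences, or stayed within 1 SE of zero, and stayed on their side of the threshold, in all but 6 of the values recomputed under the settings tried. Dcn turned to 0.44 after folinic acid in mutants and to 0.19 in the average of both genotypes under quantile normalization, and to 0.12 in mutants as the mean of its probe sets. The genotype difference under folinic acid ran from -0.36 to 0.30 for Pdgfra and from -0.17 to 0.21 for Sparc when single arrays were left out. Vim averaged over genotypes passed the threshold with array weights (-0.39, adjusted p = 0.040). As reported its adjusted p was 0.108, and under the other 25 settings 0.055 to 0.361, the highest under quantile normalization; leaving out single arrays gave -0.52 to -0.42. Counts of probe sets past the threshold moved more. Folinic acid in mutants gave 0, but 2 without a filter, 103 with array weights and 0 to 662 with single arrays left out, the highest without mutant folinic acid replicate 2. In the comparison of folinic acid averaged over genotypes, 1 passed, but 0 with 1 probe set per gene, 245 with array weights, 2 with the actin covariate and 0 to 150 with single arrays left out (118 when wild-type folinic acid replicate 3 was left out, 150 when it was mutant folinic acid replicate 2). Genotype under saline gave 1, but 2 with an offset of 16, 3 without a filter, 2 on the compared groups only and 1 to 2 with single arrays left out. Genotype under folinic acid gave 1, but 2 with the offset and 2 without a filter. The causes were not tested. A replicate block changed no call of the 10 genes: with it, Vim was at -0.46 in wild type, -0.49 in mutants (adjusted p = 0.291) and -0.47 averaged. The 95% interval of Vim in wild type ran from -0.75 to -0.16 on the log2 scale.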
